A study of Mus musculus with 2 samples.

Results

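The 9 genes described here, Kcnj11, Abcc8, Cacna1c, Cacna1d, Cacna1a, Scn3a, Scn9a, Kcnk16 and Trpm5, encode ion channel subunits of the electrical activity of islet endocrine cells, and were chosen by symbol from the 27998 genes of the count table. They were measured by droplet-based single-cell RNA-Seq of transcript 3′ ends in 1 library from WT mice and 1 library from GKO (ghrelin knockout) mice of strain C57BL/6N. GKO mice were homozygous for a germline deletion of the ghrelin gene (line GKO1), which is not limited to a cell type, and WT mice were littermates. In both groups, islets of 4 male mice, 8 weeks old and fed standard chow ad libitum, were pooled before live single cells were sorted. No other allele or agent was involved, and with 1 pool per genotype no difference between genotypes can be told apart from a difference between pools, so values are given without a test.

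A β cell fires when its ATP-sensitive potassium channel closes. This channel is built from a pore, encoded by Kcnj11, and a sulfonylurea receptor, encoded by Abcc8, and it closes as glucose is metabolized. The membrane then depolarizes, voltage-gated sodium channels (Scn3a, Scn9a) and calcium channels (Cacna1c and Cacna1d of the L type, Cacna1a of the P/Q type) open, and the calcium that enters triggers hormone release. Kcnk16 encodes a background potassium channel of the K2P family, which opposes depolarization, and Trpm5 encodes a cation channel that calcium inside the cell opens, known from taste cells and β cells.

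Barcodes, each standing for 1 droplet, were kept when they had at least 500 genes and at most 10% mitochondrial unique molecular identifiers (UMIs, which count each captured transcript once), leaving 7100 of 7792 in WT and 6346 of 7289 in GKO. Those in which 1 hormone made up at least 10% of UMIs were named by that leading hormone: insulin (Ins1 with Ins2) in 2265 WT and 872 GKO barcodes, glucagon in 1048 and 1397, somatostatin in 1414 and 1003, and pancreatic polypeptide (PP) in 717 and 669. Marker genes outside the hormones were read in the same classes. Slc2a2, the glucose transporter of mouse β cells, was at 684 and 656 UMIs per 1000000 in insulin-led barcodes of WT and GKO and at most 6.32 in the other hormone-led classes. Irx1, an α cell transcription factor, was at 96.2 and 106 in glucagon-led barcodes and at most 11.9 in the other 3, and Hhex, the δ cell factor, was at 271 and 287 in somatostatin-led barcodes and at most 28.1 in the other 3. For PP-led barcodes the marker Pyy, a peptide of the same family, stood at 187600 and 183800 per 1000000, so that it alone lowers the level of every other gene in that class. All levels are UMIs per 1000000 UMIs without the 5 hormone genes Ins1, Ins2, Gcg, Sst and Ppy, because hormone UMIs took 61.3% and 59.2% of insulin-led UMIs but 22.4% and 22.0% of somatostatin-led ones. Intervals are exact 95% intervals and cover counting error only.

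The libraries held 158067110 UMIs in WT and 103511757 in GKO, and the label of the knockout was checked with Ghrl, which had 43634 UMIs in WT and 280 in GKO. The 2 libraries share 18 barcode sequences. Free RNA had not been removed from the counts. Where its subtraction is named below, the mean count per macrophage-marked barcode of the same library was used, floored at 0. That group held Cacna1d at 14.0 in WT and 13.5 in GKO, above the other marked groups. The size of free RNA was read from hormone-poor barcodes that carried at least 3 markers of another cell type. In WT and GKO these were 586 and 441 endothelial-marked, 262 and 584 activated stellate-marked, 206 and 416 quiescent stellate-marked, and 205 and 465 macrophage-marked ones.

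Both subunits of the ATP-sensitive potassium channel were found, but at very unequal UMI numbers. Abcc8 (ENSMUSG00000040136; chr7:46104523-46180033, minus strand, GRCm38) was counted in every class at a high level. Its insulin-led level was 459 (interval 451 to 466) in the WT library and 442 (431 to 453) in the GKO library. The glucagon-led levels of Abcc8 were 344 and 392, the somatostatin-led levels 463 and 498, and the PP-led levels 225 and 243. Among non-hormone UMIs, the somatostatin-led level was thus near the insulin-led one in WT, where the intervals overlapped, and higher in GKO. This comparison depends on the total. Over all UMIs, Abcc8 was at 360 and 389 in somatostatin-led and 178 and 180 in insulin-led barcodes. UMIs per barcode went the other way, at 4.25 and 4.26 in somatostatin-led and 6.98 and 6.79 in insulin-led ones. PP-led barcodes held the least in both libraries, with intervals apart from all others. In the hormone-poor marked barcodes Abcc8 ran from 5.05 to 20.6, and 2.95% to 9.27% of them had an Abcc8 UMI, against 91.5% to 99.0% of the hormone-led ones.

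Kcnj11 (ENSMUSG00000096146; chr7:46093953-46100764) lies on the same strand, 3758 bases beyond the 3′ end of Abcc8. It gave only 101 UMIs in WT and 64 in GKO over all hormone-led barcodes, against 27867 and 17869 of Abcc8. Its level was 1.28 and 1.27 in insulin-led, 1.82 and 1.27 in glucagon-led, 2.16 and 1.40 in somatostatin-led, and 0.917 and 1.80 in PP-led barcodes. None of the neighbors in this order had intervals apart in either library, and a Kcnj11 UMI was found in 1.15% to 2.54% of hormone-led barcodes. No Kcnj11 UMI was found in 205 and 465 macrophage-marked barcodes, where 3 counts would be 1.46% and 0.645% of them. Endothelial-marked barcodes held 1 and 2 Kcnj11 UMIs, at levels of 0.195 and 0.561. The GKO interval (0.068 to 2.03) overlapped those of the hormone-led classes, so absence outside these classes is not shown. UMI numbers of different genes are not on 1 scale in a 3′ end assay, so the gap between the pore and its receptor is not a ratio of transcripts, and at this depth a difference in Kcnj11 between classes or genotypes was not detectable. Whether the annotation used for counting covers the 3′ end of Kcnj11 is not given in the sources used here and was not checked, so its UMIs may not reflect the amount of its transcript.

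**Figure D1:**
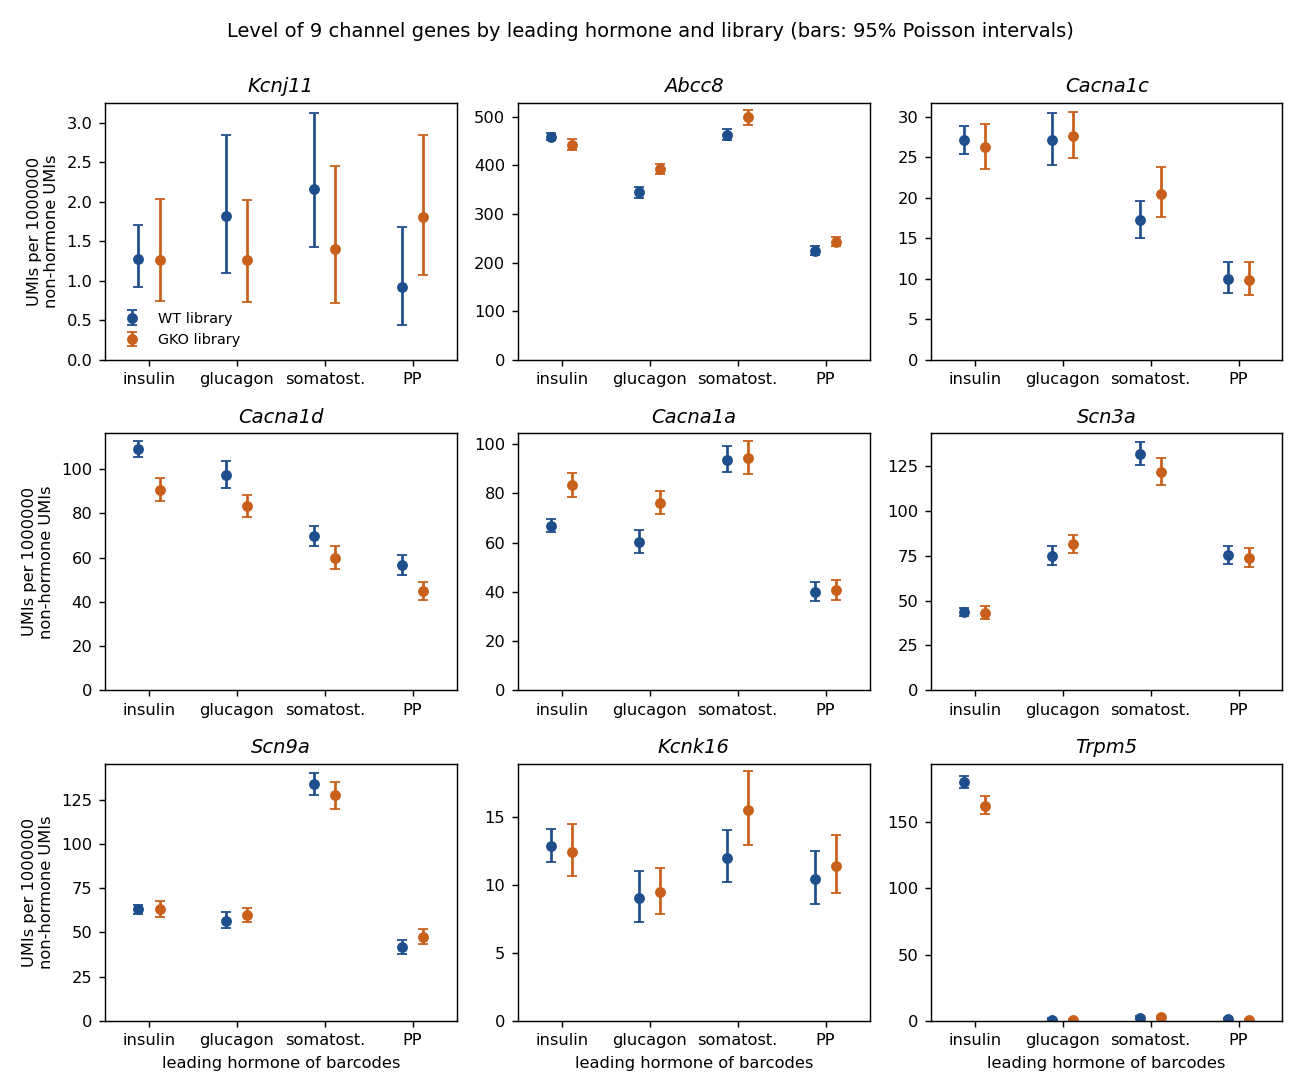
Level of each of the 9 genes in UMIs per 1000000 non-hormone UMIs (linear axes that start at 0) for barcodes led by insulin, glucagon, somatostatin or PP, in the WT library (blue) and the GKO library (orange); bars are 95% Poisson intervals. Trpm5 stands at 180.1 and 162 in insulin-led barcodes and at most 2.57 elsewhere, Scn9a and Scn3a are highest in somatostatin-led barcodes, and Cacna1d is lower in GKO in all 4 classes.

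Among the calcium channels, the L-type gene Cacna1d (ENSMUSG00000015968; chr14:30039939-30491455, minus strand) followed the same order of classes in both libraries. Its level went from 109 and 90.5 in insulin-led barcodes through 97.3 and 83.2 in glucagon-led and 69.7 and 60.01 in somatostatin-led to 56.6 and 44.8 in PP-led barcodes. The insulin-led and glucagon-led intervals overlapped in GKO only, and all other neighbors were apart. This order depends on the total. Over all UMIs, Cacna1d was highest in glucagon-led barcodes, at 69.9 and 59.6. Somatostatin-led barcodes then held 54.1 and 46.8, insulin-led 42.2 and 36.9, and PP-led 35.7 and 28.7. The other L-type gene, Cacna1c (ENSMUSG00000051331; chr6:118587240-119196418, minus strand), was at 27.1 and 26.3 in insulin-led, 27.2 and 27.7 in glucagon-led, 17.3 and 20.5 in somatostatin-led, and 10.0 and 9.92 in PP-led barcodes. Insulin-led and glucagon-led barcodes could not be told apart in Cacna1c in either library. Over all UMIs as the total, insulin-led barcodes held 10.5 and 10.7 and glucagon-led ones 19.5 and 19.8. PP-led barcodes held 0.419 times the mean of the other 3 classes in WT and 0.400 times in GKO, past the 2-fold limit set for class differences.

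The P/Q-type gene Cacna1a (ENSMUSG00000034656; chr8:84388440-84640246, plus strand) had a different order. It was highest in somatostatin-led barcodes, at 93.8 and 94.5, followed by 66.8 and 83.5 in insulin-led, 60.4 and 76.2 in glucagon-led, and 40.0 and 40.7 in PP-led barcodes. The somatostatin-led and insulin-led intervals overlapped in GKO, the insulin-led and glucagon-led ones in both libraries. For each UMI of Cacna1d, somatostatin-led barcodes held 1.34 (1.23 to 1.47) UMIs of Cacna1a in WT and 1.57 (1.41 to 1.76) in GKO, while the WT values of the other classes ran from 0.613 to 0.707 and the GKO values from 0.908 to 0.922. The ratio was therefore higher in somatostatin-led barcodes than in the other 3 in each library, with no overlap of intervals.

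Both sodium channel genes were highest in somatostatin-led barcodes. Scn9a (ENSMUSG00000075316; chr2:66480080-66634962, minus strand) was at 134 and 127 in somatostatin-led barcodes. It stood at 62.9 and 63.1 in insulin-led, 56.7 and 59.6 in glucagon-led, and 41.6 and 47.5 in PP-led barcodes, so that the somatostatin-led level was 2.49 times the mean of the other 3 classes in WT and 2.24 times in GKO. With a leading hormone of at least 25% of UMIs, these folds were 1.97 and 1.86, under the limit. Scn3a (ENSMUSG00000057182; chr2:65457118-65567627, minus strand) lies 912452 bases from Scn9a. It was at 132 and 122 in somatostatin-led, 75.3 and 73.9 in PP-led, 75.1 and 81.6 in glucagon-led, and 43.8 and 43.2 in insulin-led barcodes. The somatostatin-led level of Scn3a was 2.04 times the mean of the others in WT and 1.84 times in GKO, which missed the limit in GKO, and the insulin-led level was 0.465 and 0.467 times the mean of the others, which passed it.

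As both genes were read in the same barcodes, their ratio does not depend on how the totals were scaled. For each Scn9a UMI there were 0.696 (0.651 to 0.743) Scn3a UMIs in insulin-led barcodes of WT and 0.684 (0.614 to 0.761) in those of GKO. The ratio was 0.988 and 0.957 in somatostatin-led, 1.33 and 1.37 in glucagon-led, and 1.81 and 1.55 in PP-led barcodes. The intervals of insulin-led barcodes lay below those of the other 3 classes in both libraries, and those of glucagon-led and PP-led barcodes were apart in WT and overlapped in GKO. As UMIs of different genes are not on 1 scale, the ratio is read between classes only, and does not say which of the genes was more abundant.

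**Figure D2:**
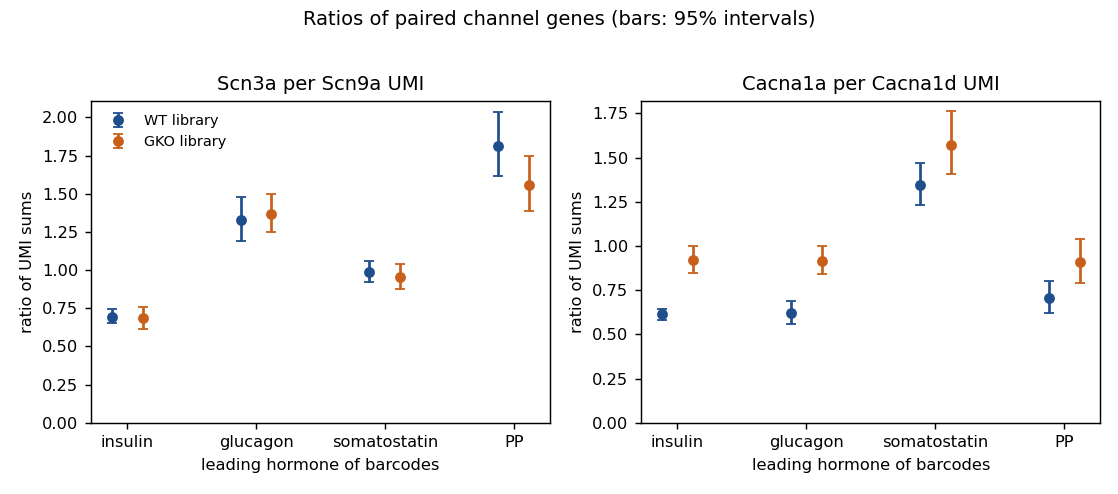
Left, Scn3a UMIs per Scn9a UMI and, right, Cacna1a UMIs per Cacna1d UMI (linear axes from 0) by the leading hormone of barcodes in WT (blue) and GKO (orange), with 95% intervals. The sodium channel ratio lies at 0.696 and 0.684 in insulin-led and at 1.81 and 1.55 in PP-led barcodes, and the calcium channel ratio is highest in somatostatin-led barcodes, at 1.34 and 1.57.

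Kcnk16 (ENSMUSG00000023387; chr14:20261376-20269199, minus strand) differed little between classes. It was at 12.9 and 12.5 in insulin-led, 9.03 and 9.47 in glucagon-led, 12.0 and 15.5 in somatostatin-led, and 10.5 and 11.4 in PP-led barcodes, and no neighbors in the order were apart in either library. The highest class was 1.43 times the lowest, glucagon-led barcodes, in WT and 1.64 times in GKO, and the intervals of these 2 were apart in both libraries. Over all UMIs as the total, insulin-led barcodes were the lowest, at 5.00 and 5.09. Kcnk16 was near absent from hormone-poor marked barcodes, at 0 to 0.943.

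Trpm5 (ENSMUSG00000009246; chr7:143069153-143094642, minus strand) was the gene with the sharpest class difference of the 9. Insulin-led barcodes held it at 180.1 (176 to 185) in the WT library and 162 (156 to 169) in the GKO library. It was 0.960 and 0.820 in glucagon-led, 2.47 and 2.57 in somatostatin-led, and 1.19 and 0.702 in PP-led barcodes, while hormone-poor marked barcodes held 0.281 to 0.977. The insulin-led level was 117 times the mean of the other 3 classes in WT and 119 times in GKO. A Trpm5 UMI was found in 74.9% of insulin-led barcodes in WT and 72.9% in GKO, at median depths of 13559 and 14066 non-hormone UMIs. In glucagon-led barcodes the share was 0.954% and 0.787%, beside 0.853% and 0.227% of endothelial-marked barcodes at median depths of 8811 and 8476 against 7001 and 7287. After each barcode had been thinned to 3000 non-hormone UMIs, which left out 10 and 1 insulin-led barcodes, the share was 37.4% and 36.5% in insulin-led and 0.140% to 0.999% in the other hormone-led barcodes.

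For Trpm5 and Scn9a, the 2 genes highest in 1 class by the 2-fold limit, the 250 bases before the annotated start site are shown, read from RefSeq on GRCm38.p6 in the direction of the gene. Capitals mark the E-box CANNTG, which reads the same on both strands, and TAAT on either strand (ATTA as printed), the core letters bound by basic helix-loop-helix and homeodomain factors, respectively. The marked letters do not overlap.
Trpm5 (chr7:143094643-143094892, minus strand): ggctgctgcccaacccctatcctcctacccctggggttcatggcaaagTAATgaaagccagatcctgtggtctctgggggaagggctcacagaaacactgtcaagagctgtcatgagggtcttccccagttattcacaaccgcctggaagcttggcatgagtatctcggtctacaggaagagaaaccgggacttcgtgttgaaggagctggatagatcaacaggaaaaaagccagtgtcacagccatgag
Scn9a (chr2:66634963-66635212, minus strand): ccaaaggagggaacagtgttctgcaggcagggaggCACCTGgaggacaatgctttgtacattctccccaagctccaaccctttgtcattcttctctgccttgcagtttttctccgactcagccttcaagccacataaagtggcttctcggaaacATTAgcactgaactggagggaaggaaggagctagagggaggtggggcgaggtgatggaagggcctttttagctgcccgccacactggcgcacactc
The Trpm5 stretch held 1 TAAT and 0 E-boxes, and the Scn9a stretch 1 of each. Among 32851 stretches of the same length before annotated mouse genes, 66.2% held an E-box and 54.9% a TAAT, so that neither set of letters is particular to these genes. Entries for 5 of the 9 genes were matched.

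Class differences past 2-fold were also counted over all genes, but no share was taken for a fold as large as that of Trpm5. With a limit of 2-fold in the same direction in both libraries, 1 member was higher in insulin-led barcodes (Trpm5) and 1 lower (Scn3a), where the shares of 14544 genes tested were 5.51% and 7.54%. In glucagon-led barcodes 0 members were higher and 1 lower (Trpm5), beside 2.99% and 6.71% of genes. Somatostatin-led barcodes had 1 member higher (Scn9a) and 1 lower (Trpm5), beside 6.31% and 6.59%, and PP-led barcodes had 0 higher and 2 lower (Cacna1c, Trpm5), beside 1.86% and 9.23%. The low calls of Trpm5 follow from its level in insulin-led barcodes, which enters the mean of the others.

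Within the insulin-led barcodes, Trpm5, Scn3a and Scn9a moved with the share of UMIs that insulin took. Trpm5 was at 20.7 and 16.6 in the 53 WT and 37 GKO barcodes with 10 to 25% insulin, at 114 and 110 in the 942 and 388 barcodes with 25 to 60%, and at 250 and 234 in the 1270 and 447 barcodes with over 60%. Scn3a went the other way, from 67.2 and 69.0 through 54.3 and 59.3 to 32.8 and 23.6, and Scn9a went from 74.1 and 84.4 through 73.0 and 76.1 to 53.1 and 47.2. The intervals of the 2 upper bands were apart for all 3 genes in both libraries, and overlapped in both for Kcnj11, Cacna1c, Cacna1d, Cacna1a and Kcnk16. Cacna1d, for example, was at 105 and 88.9 in the middle band and 114 and 92.9 in the upper one. Barcodes whose second hormone took under 2% of UMIs gave Trpm5 levels of 121 and 113 at 25 to 60% and 250 and 234 at over 60%, and Scn3a levels of 46.1 and 44.0 against 32.2 and 23.2. Since hormone UMIs are outside the total, these levels are not diluted by insulin itself. Abcc8 was at 437 and 470 in the middle band and 480 and 425 in the upper one, with opposite directions in the 2 libraries. In the 183 WT and 97 GKO barcodes with a second hormone at 10% or more, whichever hormone led, Trpm5 was at 42.4 and 15.6.

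**Figure D3:**
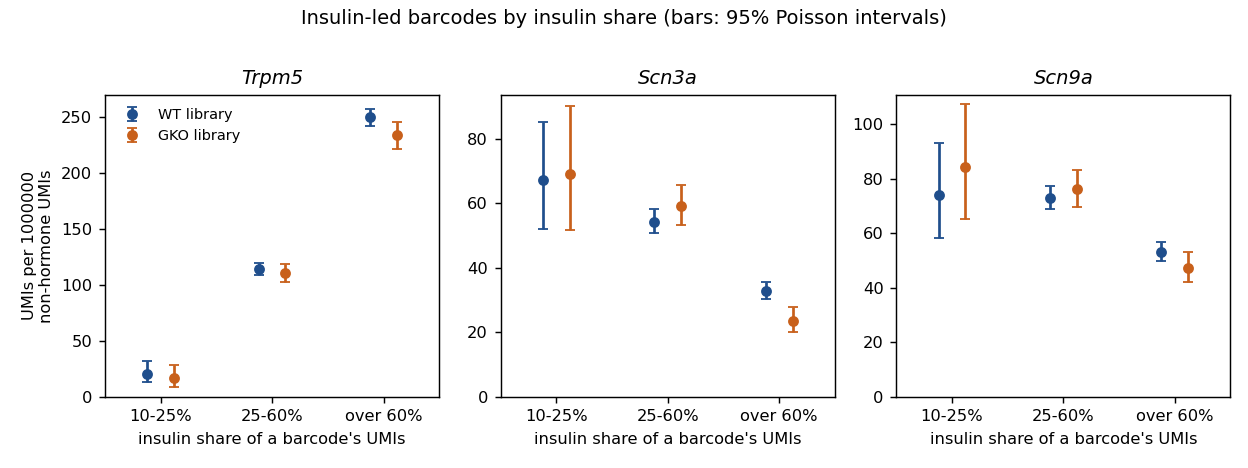
Level of Trpm5, Scn3a and Scn9a (UMIs per 1000000 non-hormone UMIs, linear axes from 0) in insulin-led barcodes split by insulin share, for WT (blue) and GKO (orange) with 95% Poisson intervals. Trpm5 goes up from 114 and 110 to 250 and 234 between the 2 upper bands, and Scn3a goes down from 54.3 and 59.3 to 32.8 and 23.6.

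Single barcodes were less alike in Trpm5, Scn3a and Scn9a than counting alone would give. If every insulin-led barcode had held the mean level, 90.0% in WT and 88.1% in GKO would have shown a Trpm5 UMI, against the 74.9% and 72.9% seen. For Scn3a the same numbers were 46.8% and 46.7% against 38.1% and 36.5%, and for Scn9a 58.8% and 59.4% against 52.7% and 51.7%. The gap was smaller for Cacna1a, at 60.9% and 68.9% against 58.2% and 65.6%. For Cacna1d the numbers were 77.1% and 71.6% against 76.2% and 70.9%. Up to 17 Trpm5 UMIs were found in 1 barcode. Cacna1d was thus spread over insulin-led barcodes nearly as evenly as its counts allow, and Trpm5 was not.

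The comparison of genotypes asks whether the channels of each class differ between GKO and WT islets. With a limit of 1.5-fold and at least 50 UMIs, 9 members could be read in insulin-led, 7 in glucagon-led, 8 in somatostatin-led and 7 in PP-led barcodes, and 0 of them passed the limit in either direction in any class. Over all genes, 3.29% were higher and 3.69% lower in insulin-led barcodes, 3.00% and 2.69% in glucagon-led, 2.32% and 2.62% in somatostatin-led, and 2.97% and 1.89% in PP-led ones, so that 0 of 7 to 9 members is near what these shares give. In the same barcodes the summed level of 6 acinar markers was 512 to 997 in WT and 187 to 326 in GKO, and that of 6 activated stellate markers 6.01 to 116 in WT and 54.8 to 226 in GKO. Their part in the ratios below was not tested.

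Smaller differences had intervals on 1 side of 0. Cacna1d was lower in GKO in all 4 classes, with log2 ratios of GKO to WT of −0.27 (−0.36 to −0.17) in insulin-led, −0.23 (−0.35 to −0.10) in glucagon-led, −0.22 (−0.38 to −0.06) in somatostatin-led and −0.34 (−0.52 to −0.16) in PP-led barcodes. Of 11011 genes with enough UMIs in all 4 classes, 11.8% were lower in all 4 and 21.8% higher, counts made after these ratios had been seen. Cacna1a was higher in insulin-led barcodes, by 0.32 (0.22 to 0.42), and in glucagon-led ones, by 0.33 (0.19 to 0.48), and its log2 ratios in somatostatin-led and PP-led barcodes were 0.01 (−0.12 to 0.14) and 0.02 (−0.17 to 0.22). Cacna1d and Cacna1a thus stood on opposite sides in insulin-led and glucagon-led barcodes, and both kept their sign under each of 8 other ways of processing in these classes. Cacna1c gave −0.04 (−0.23 to 0.13), 0.03 (−0.20 to 0.25), 0.25 (−0.04 to 0.54) and −0.01 (−0.42 to 0.39) in the order of classes above.

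Abcc8 was slightly lower in GKO in insulin-led barcodes, at −0.05 (−0.10 to −0.01), and higher in glucagon-led, at 0.19 (0.12 to 0.25), in somatostatin-led, at 0.11 (0.05 to 0.16), and in PP-led barcodes, at 0.11 (0.03 to 0.20). Over all UMIs as the total, the insulin-led value turned to 0.02. The insulin-led ratio of Abcc8 also covers bands that went opposite ways. At 25 to 60% insulin Abcc8 was at 437 (427 to 448) in WT and 470 (453 to 487) in GKO. At over 60% it was at 480 (470 to 490) and 425 (409 to 442), and at 10 to 25% at 420 and 355 with overlapping intervals. Trpm5 was lower in insulin-led barcodes, at −0.15 (−0.22 to −0.08). Within each band of insulin share, however, its WT and GKO intervals overlapped. Trpm5 was at 114 (109 to 119) in WT and 110 (102 to 119) in GKO at 25 to 60%. At over 60% it was at 250 (242 to 257) and 234 (222 to 246). The part of the mix of bands in the pooled ratio was not tested. In somatostatin-led barcodes, with 32 and 22 Trpm5 UMIs, the ratio was 0.06 (−0.79 to 0.89). Scn3a gave −0.02 (−0.16 to 0.12) in insulin-led, 0.12 (−0.01 to 0.25) in glucagon-led, −0.12 (−0.23 to −0.003) in somatostatin-led and −0.03 (−0.17 to 0.12) in PP-led barcodes. Scn9a gave 0.004 (−0.11 to 0.12), 0.07 (−0.08 to 0.23), −0.07 (−0.18 to 0.04) and 0.19 (0.004 to 0.38) in the same order. The pooled insulin-led ratio of Scn3a covers bands with unlike ratios. At 25 to 60% insulin Scn3a was at 54.3 in WT and 59.3 in GKO, with overlapping intervals. At over 60% it was at 32.8 (30.2 to 35.6) in WT and 23.6 (20.0 to 27.8) in GKO, with intervals apart. For Kcnk16 the largest ratio was 0.37 (0.02 to 0.71) in somatostatin-led barcodes, from 12.0 to 15.5. It gave −0.05, 0.07 and 0.13 in insulin-led, glucagon-led and PP-led barcodes, with intervals that held 0. Kcnj11 could be read in insulin-led barcodes alone, at −0.01 (−0.91 to 0.83).

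**Figure D4:**
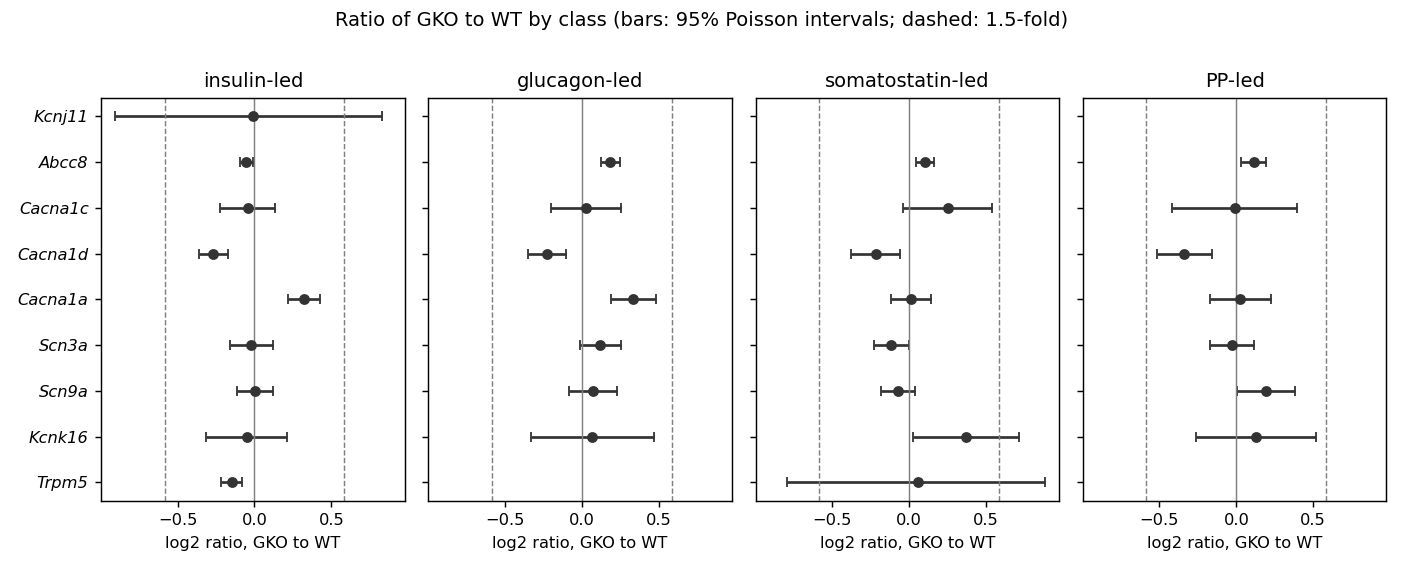
Log2 ratio of GKO to WT for each of the 9 genes (rows) in the 4 classes (panels), with 95% Poisson intervals; dashed lines mark 1.5-fold and a missing point means fewer than 50 UMIs. No point lies outside the dashed lines, Cacna1d lies left of 0 in all 4 panels, and Cacna1a lies right of 0 in insulin-led and glucagon-led barcodes.

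A list of 115 other channel genes (potassium, calcium and sodium channels with their auxiliary subunits, transient receptor potential, cyclic nucleotide-gated and chloride channels) was read beside the 9. In insulin-led barcodes 64 had enough UMIs, of which 2 were past 1.5-fold higher and 5 lower in GKO, with a median log2 ratio of −0.02 beside 0.01 over all genes. In glucagon-led barcodes 2 of 49 were higher and 5 lower (median 0.05 beside 0.05), in somatostatin-led 2 of 54 and 4 (−0.05 beside 0.02), and in PP-led 3 of 48 and 5 (−0.04 beside 0.04). The lower calls were thus 7.81%, 10.2%, 7.41% and 10.4% of the list, beside 3.69%, 2.69%, 2.62% and 1.89% of all genes. The higher calls were 3.13%, 4.08%, 3.70% and 6.25%, beside 3.29%, 3.00%, 2.32% and 2.97%, and the 9 higher calls over the 4 classes became 26 after free RNA was subtracted. Of the 28 calls, 14 had at least 100 UMIs in the class. A gene is counted once per class, so that Kcnip3 enters the lower calls of all 4 classes. All genes were not matched to the list in UMI number, so the shares are a description only.

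Kcnip3, which encodes a calcium-binding partner of voltage-gated potassium channels, was past the limit in PP-led barcodes, at 38.6 in WT and 24.2 in GKO, and in glucagon-led barcodes, at 31.7 and 19.1. The glucagon-led log2 ratio went from −0.73 to −0.56, inside the limit, with a leading hormone of at least 25%. The gene was also past it in insulin-led (2.09 and 1.05) and somatostatin-led barcodes (3.70 and 2.22), which have under 100 UMIs and were named after their values had been seen. Kcnk3, a K2P channel sensitive to acid, was at 184 and 119 in glucagon-led barcodes (log2 ratio −0.63, −0.73 to −0.54). Its log2 ratio was −0.51 in somatostatin-led, −0.41 in PP-led and −0.22 in insulin-led barcodes, none past the limit. Kcnc4, a voltage-gated potassium channel, was at 11.4 and 4.62 in glucagon-led barcodes, and Kcnk2, a stretch-sensitive K2P channel, at 22.0 and 12.0 in somatostatin-led and 5.57 and 3.35 in glucagon-led ones. In glucagon-led barcodes the log2 ratio of Kcnk2 turned from −0.73 to 0.30 at the 25% limit and went to −0.39 after free RNA was subtracted.

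In insulin-led barcodes the calcium-activated Kcnn4 was at 3.91 in WT and 1.42 in GKO, and the inward rectifier Kcnj12 at 5.39 and 3.51. The log2 ratio of Kcnj12, −0.62, went to −0.54 over all UMIs as the total, −0.57 with no barcode filter and −0.56 at the 25% limit, none past 1.5-fold. The voltage-gated Kcna2 was higher there, at 8.29 and 14.0. In somatostatin-led barcodes Kcnmb4, an auxiliary subunit of the large-conductance calcium-activated potassium channel, was higher in GKO, at 9.33 and 17.3, and the inward rectifier Kcnj3 lower, at 9.71 and 5.95, a log2 ratio that turned from −0.71 to 0.56 at the 25% limit. The sodium channel β subunit Scn2b was at 6.33 and 4.11 in PP-led barcodes, a log2 ratio of −0.62 that went to −0.58 with no barcode filter and −0.30 at the 25% limit, neither past 1.5-fold. Several of these rest on few UMIs, for example 135 and 19 of Kcnn4.

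The same list was read between classes. Of 82 genes with enough UMIs, 12 were past 2-fold higher and 28 lower in insulin-led barcodes, beside 5.51% and 7.54% of 14544 genes. In glucagon-led barcodes 9 were higher and 27 lower, beside 2.99% and 6.71%. Somatostatin-led barcodes had 26 and 16, beside 6.31% and 6.59%, and PP-led ones 1 and 25, beside 1.86% and 9.23%. Among those named here, insulin-led barcodes had the largest folds for Kcnj12 (31.7 times the mean of the others in WT and 34.2 times in GKO), Kcna2 (7.44 and 11.4 times) and the calcium-permeable Trpm2 (5.76 and 7.19 times). Somatostatin-led barcodes had them for the calcium channel auxiliary subunit Cacna2d2, at 70.1 and 76.2 beside a mean of 4.66 and 6.04, for Trpa1, a sensor of irritants (13.7 and 11.8 times), and for the T-type calcium channel Cacna1h (8.73 and 9.79 times). Glucagon-led barcodes had them for Kcnc4 (20.5 and 11.0 times) and Cacna2d4 (4.69 and 3.91 times), and PP-led barcodes for Kcnip3 alone (3.09 and 3.24 times). Kcnip3 was not particular to PP-led barcodes, however. It was at 38.6 and 24.2 there and at 31.7 and 19.1 in glucagon-led ones.

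Outside the hormone-led barcodes, 1 member was higher than in any endocrine class. Cacna1c, which also serves smooth muscle, was at 63.2 in WT and 48.3 in GKO quiescent stellate-marked barcodes, named for markers such as Rgs5 and Acta2, and a UMI was found in 28.2% and 21.6% of them. Endothelial-marked barcodes held 2.74 and 1.12, activated stellate-marked ones 6.38 and 4.99, and macrophage-marked ones 2.06 and 0.643. The 6 quiescent stellate markers summed to 6.33 in WT and 49.7 in GKO PP-led barcodes, where Cacna1c was at 10.0 and 9.92. Macrophage-marked barcodes held Cacna1d at 14.0 and 13.5, against 1.40 to 6.38 in the other marked barcodes, and Cacna1a was at 12.1 and 25.5 in activated stellate-marked barcodes, against 2.57 to 15.4 in the others. Of the 9 genes, 75.7% (Cacna1c, GKO) to 98.5% (Trpm5, WT) of UMIs came from hormone-led barcodes.

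**Figure D5:**
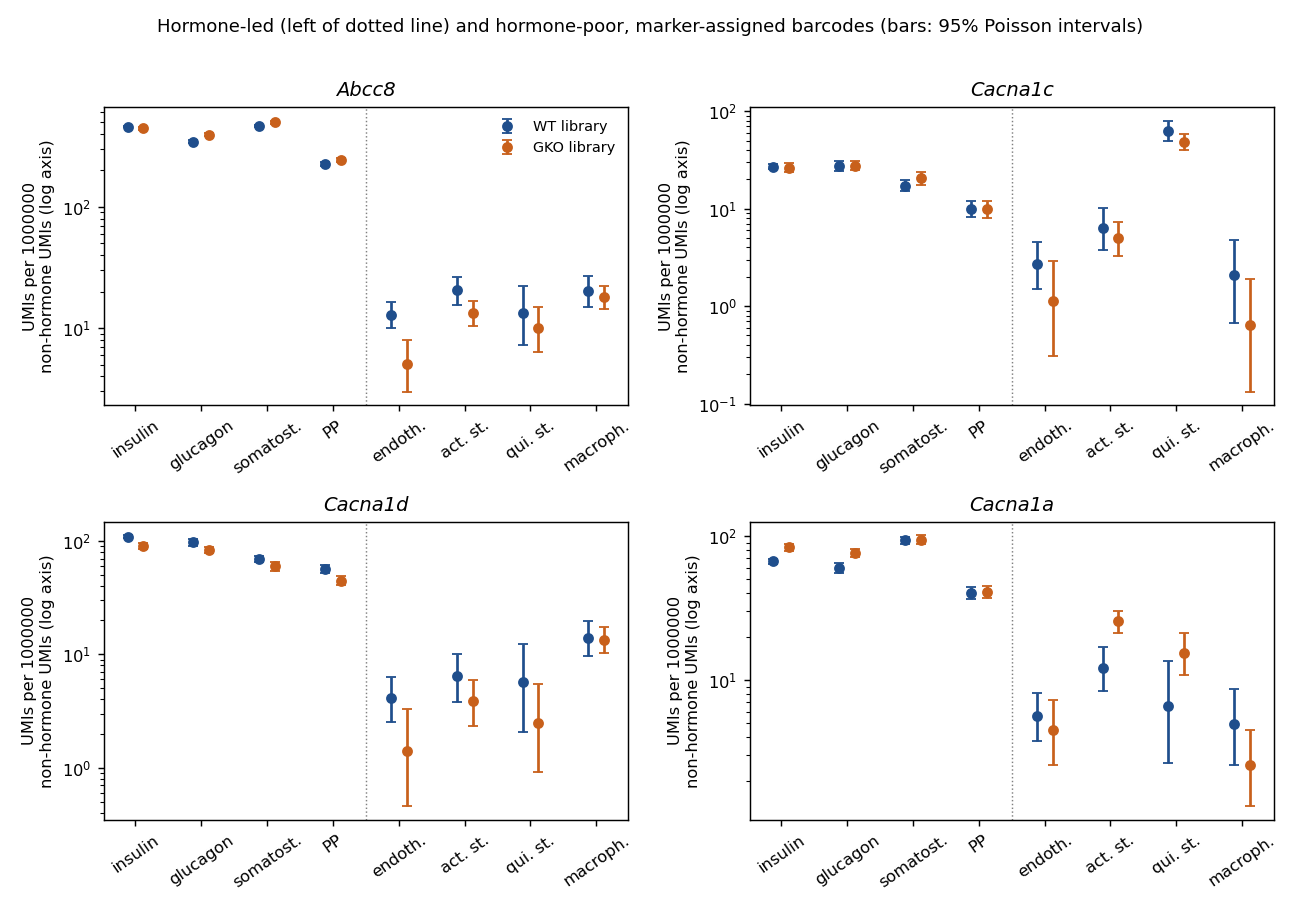
Level of Abcc8, Cacna1c, Cacna1d and Cacna1a (UMIs per 1000000 non-hormone UMIs, log axes) in the 4 hormone-led classes and, right of the dotted line, in hormone-poor barcodes with endothelial, activated stellate, quiescent stellate or macrophage markers, for WT (blue) and GKO (orange) with 95% Poisson intervals. Cacna1c is highest in quiescent stellate-marked barcodes, at 63.2 and 48.3, while the other 3 genes are lower in every hormone-poor group than in every hormone-led class.

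Genes annotated on the opposite strand overlap 6 of the members, and whether strand was used in counting is not given in the sources used here. Tssc4 lies within the 3′ part of Trpm5 over 1845 bases, and was at 147 and 172 in insulin-led barcodes and 56.0 to 88.1 in the others. Its log2 ratio of GKO to WT in insulin-led barcodes was 0.22, opposite to that of Trpm5. Chdh overlaps the 3′ end of Cacna1d by 589 bases and was at 0.802 to 1.28 in every class and library. Dcp1a overlaps Cacna1d by 11921 bases and was at 6.21 to 13.9, with log2 ratios of −0.09, −0.30, −0.35 and −0.22 in insulin-led, glucagon-led, somatostatin-led and PP-led barcodes, on the same side as those of Cacna1d. Its part in the Cacna1d ratio was not tested. Gm16183, antisense to Cacna1a, was at 1.19 to 4.16, Dcp1b, opposite Cacna1c, at 8.92 to 14.1, and the antisense genes in Scn3a and Scn9a at most 1.17.

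The genes whose levels over the 4 hormone-led classes and the hormone-poor barcodes of both libraries (10 points) were most like those of each member were found among 10816 genes. For Trpm5 they were Fam151a and Car10 (Pearson r of log2 levels 0.997 and 0.996), for Scn9a Hmgn3 and Smyd4 (0.998 and 0.994), and for Abcc8 Lrp11 and Slc7a14 (0.996 and 0.996). Scn3a was most like St8sia3 and Slc29a4 (0.994 and 0.994), Cacna1a like Chd9 and B830012L14Rik (0.996 and 0.993), Cacna1d like Nfasc and Nktr (0.993 and 0.989), and Cacna1c like Ncoa1 and AI314180 (0.990 and 0.988). Kcnk16 was most like 2300009A05Rik and Cnpy2 (0.994 and 0.993), and Kcnj11 like Gm9776 and Gm12576 (0.966 and 0.959). The 5 points of a library share its depth, so these values describe the pattern alone.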

How the data were processed

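The authors sorted live single islet cells, made 10x Genomics 3′ libraries and counted UMIs with Cell Ranger (version 5.0.1 in the matrix header; build mm10 in the submitters' notes), with reads down-sampled as required. The deposited values are these raw UMI counts, before ambient RNA removal. Counts were summed per leading hormone and library and divided by UMIs without the 5 hormone genes, with exact Poisson intervals for levels and ratios and Clopper-Pearson intervals for shares (scipy 1.17.1 and numpy 2.4.6 in Python 3.11.15, with pandas 2.3.3; plots by matplotlib 3.10.9). TMM factors came from edgeR 4.0.16 in R 4.3.3. PCR copies are removed by UMIs, but intervals cover counting error alone, at 95%.

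No test was possible with a single library of each genotype. Limits were 1.5-fold between genotypes and 2-fold, in both libraries, between classes, with at least 50 UMIs. Doublets were not called, and barcodes with a second hormone at 10% or more were left out as an alternative. The text names all 9 members, other channel genes past 1.5-fold with at least 100 UMIs in the class (up to 5 per class), the 3 largest past 2-fold with at least 200 UMIs, and for each member the 2 likest genes with at least 500 UMIs (log2 of level + 1). A few genes that this rule names are not reported here. The members and lists were chosen with earlier results of these data known. Gene positions came from GENCODE M21. Sums and intervals were checked on simulated Poisson counts with known ratios. These lack the added spread between barcodes seen for Trpm5, Scn3a and Scn9a, so the check covers counting error alone.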

Additional observations from a re-analysis of the deposited data

Results flagged for a closer look

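Abcc8, the sulfonylurea receptor, had log2 ratios of GKO to WT on opposite sides of 0 in different classes. The ratio in glucagon-led barcodes minus that in insulin-led barcodes was 0.24, that in somatostatin-led minus insulin-led 0.16, and that in PP-led minus insulin-led 0.17. The intervals of the insulin-led ratio and of each of the other 3 lay on opposite sides of 0, but the difference itself was not tested, since each genotype has 1 library. The insulin-led ratio was −0.07 with TMM factors and 0.02 over all UMIs, so that its side depends on the total. It also differed by insulin share. Abcc8 was higher in GKO at 25 to 60% insulin, the same side as the other 3 classes, and lower at over 60%, with intervals of the libraries apart in both bands.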

How the results depend on the processing

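No paired analysis was possible because each genotype has 1 library, and none could be left out. Of 9 alternatives, 8 left the counts of members past 1.5-fold at 0 and 0. With no minimum of UMIs they were 1 higher and 2 lower. Over all UMIs as the total, 3 members were lower in insulin-led and 2 higher in somatostatin-led barcodes by 2-fold. The order of classes moved as well. For Abcc8, Cacna1d, Cacna1a, Scn9a and Kcnk16, insulin-led levels then lay below glucagon-led ones in both libraries. With a leading hormone of at least 25%, which left 106 WT and 90 GKO somatostatin-led barcodes, 0 were higher there (Scn9a 1.97 and 1.86 times the other classes). All other counts of members by class were equal to those in the report under each alternative. The other channel genes, 9 higher and 19 lower over the 4 classes, became 26 higher after free RNA was subtracted, 63 and 50 with no minimum, and 11 lower at the 25% limit. Kcnk2 in glucagon-led and Kcnj3 in somatostatin-led barcodes changed sign at the 25% limit, to 0.30 and 0.56. The fold of Trpm5 in insulin-led barcodes ran from 62.3 to 165 in WT and 65.4 to 171 in GKO. Cacna1d stayed between −0.39 and −0.12 (log2) in all 4 classes, and Cacna1a between 0.26 and 0.43 in insulin-led and glucagon-led barcodes. The cause of these changes was not tested. Depth limits Kcnj11, with 101 and 64 UMIs. The limit of 2% on a second hormone and the count of genes moving 1 way in all 4 classes were added after seeing the data.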
